A study of Mus musculus with 47 samples.

Results

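The genes described here are those of the proteasome, followed in mouse lung after ragweed pollen or PBS. They were taken by name: every probe set with a single annotated symbol that starts with Psma, Psmb, Psmc, Psmd, Psme or Psmf, without the inducible subunits Psmb8, Psmb9 and Psmb10. The rule gave 43 of the 16366 genes with a single symbol, represented by 91 probe set IDs. Of these, 16 genes encode subunits of the core and 5 activators or the inhibitor. Another 20 are numbered with the cap, among them Psmd5, Psmd9 and Psmd10, which are known as assembly chaperones of its base. The remaining 2, Psmc3ip and Psme3ip1, carry the name stem but encode interacting proteins. Counts of the core, cap and activators leave them out, and counts over all members include them where available. The rule uses names and no measured value, but it was set with earlier results of these data known.

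Total RNA of lung was measured on Affymetrix murine U74 arrays in 4 groups of 2 samples, coded 1a and 1b: ragweed at 24 h, PBS at 24 h, ragweed at 72 h and PBS at 72 h. Per the labels, all mice were sensitized on days 0 and 3, challenged into the trachea on days 10 and 17, and killed 24 or 72 h afterwards. The ragweed groups received ragweed pollen protein at both steps, with alum named at sensitization, and the PBS groups received PBS. Alum is named in the labels of the ragweed mice and not in those of the PBS mice, so ragweed and its adjuvant cannot be told apart. They also do not say whether 1a and 1b were separate animals, so p-values cover only the spread within these pairs, and that spread may be technical.

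The proteasome degrades proteins marked with ubiquitin. Its core is a barrel of stacked rings: the outer alpha rings (Psma genes) gate the entry, and the inner beta rings (Psmb genes) hold the catalytic sites. The cap binds the ends of the barrel. Its ATPases (Psmc genes) unfold the substrate, and its other subunits (Psmd genes) recognise ubiquitin and remove it. Activators (Psme genes) can open the barrel in place of the cap, and in immune tissue interferon replaces the 3 catalytic core subunits with inducible forms that favour the making of peptides for antigen presentation.

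The arrays come as types A, B and C, and for all 3 types there is a first version and a later one, version 2. The comparisons used first-version A, the A version with arrays of all 4 groups, with version 2 B and C. A value is the intensity of 1 probe set on 1 array, after scaling and, on first-version A, quantile normalization. Of the other versions, given for comparison, version 2 A was not quantile normalized, and first-version B and C were. Values under the 40th percentile of a table were raised to that floor (an intensity of 288 for A, 356 for B, 245 for C). Of 65 member probe sets in the tables used for the tests, 55 were above the floor on at least 2 arrays. These were tested, as 38 genes, 37 of them without the interacting proteins. All 16 core genes were tested. Psmc1, Psmc5, Psmd6, Psme2 and Psmc3ip were not. Where a gene had several probe sets, that of A stood for it before B and C, and the brightest within a table. Differences are given in log2 with the standard error of limma's fit, and a difference was called at a Benjamini-Hochberg adjusted p under 0.05 over all 25250 probe sets tested. With 2 arrays a group, precision was limited: standard errors of the differences had medians of 0.23 for A, 0.32 for B, 0.45 for C. Of the 38 genes 33 were measured on A, while shares over all genes pool A, B and C. An unadjusted p under 0.05 (limma) was more frequent among A genes than among all genes in each comparison.

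The labels' tissue and treatment could be seen in the same arrays. The 4 measured lung markers had summed intensities of 161894 and 165522 in ragweed 24 h samples, 135221 and 131851 in PBS 24 h samples, 156376 and 146103 in ragweed 72 h samples, and 155959 and 152273 in PBS 72 h samples. Chil3, a product of alternatively activated macrophages, was higher by 4.92 at 24 h and by 4.16 at 72 h (log2, ragweed minus PBS). Markers of muscle differed between the groups too. The summed intensity of 5 muscle genes (Acta1, Ckm, Myh6, Myl7 and Nppa), all above the floor, was 10763 and 12085 in ragweed 24 h samples, against 6929 and 7575 in PBS 24 h samples. By the probe sets that stood for them, the genes did not run together at 24 h. Acta1 and Ckm were higher in both ragweed samples, with Acta1 called, and Myh6, Myl7 and Nppa were lower in both. The sum was 10119 and 10138 in ragweed 72 h samples, against 19244 and 21194 in PBS 72 h samples. By the same probe sets all 5 genes were lower in both ragweed samples. A second Ckm probe set on C, outside the sums, ran the opposite way at both times. It had 507 and 362 in ragweed 24 h samples, against 1562 and 1943 in PBS 24 h samples. At 72 h it had 953 and 1807 in ragweed samples, against 846 and 826 in PBS samples. The direction of Ckm thus depended on the probe set. The part of muscle tissue in the results below was not tested. In bulk tissue, fewer cells of a type and less RNA per cell cannot be told apart.

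**Figure D1:**
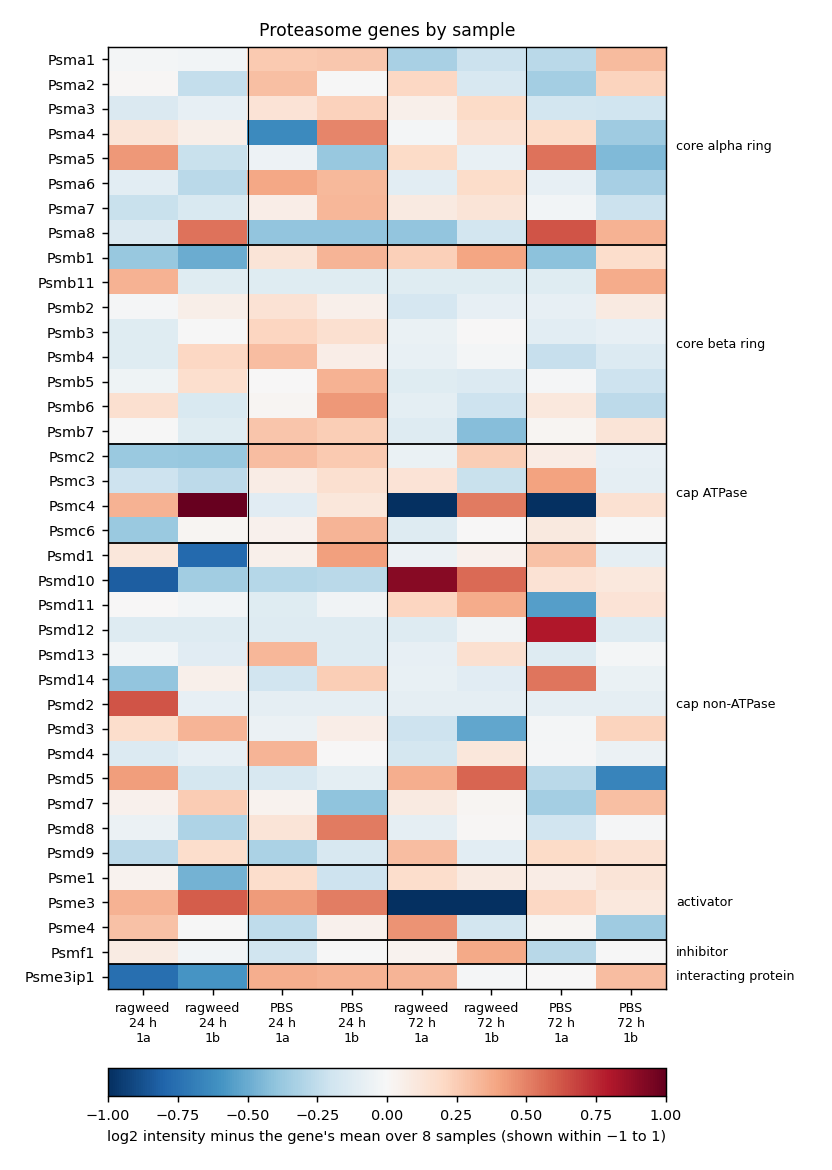
Log2 intensity of each tested proteasome gene minus its own mean over the 8 samples, with genes in rows by role and samples in columns by group. Colours run from -1 (dark blue) to 1 (dark red), and values beyond are drawn at the end colour. Psme3 is dark blue in both ragweed 72 h samples, and 12 of 16 core genes are above their mean in each PBS 24 h column.

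At 24 h no proteasome gene passed the test between ragweed and PBS. Of the 55 member probe sets 0 were called, where 0.23% of all probe sets tested were called, and the lowest adjusted p among members was 0.261 (limma). At an unadjusted p under 0.05, 7 of the 38 genes were lower in ragweed and 0 were higher, where 9.06% of all genes tested passed in either direction. The median log2 difference over the 38 genes was -0.18, against 0.00 over all 12840 genes tested. It was -0.11 without the PBS 24 h sample 1a, and -0.0042 with PBS at 72 h in the place of PBS at 24 h. On A, 22 of 33 member genes had a lower mean in ragweed, where 52.4% of all A genes did. Of these 33 genes, 13 had both ragweed samples below both PBS samples, where 20.5% of A genes were so ordered, and 4 had both above, where the share was 18%.

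The lower values were found in both the core and the cap. Over the 38 genes, 14 had both ragweed 24 h samples below both PBS 24 h samples, where 2422 of all 12840 genes tested did. Of the 14 genes 7 were of the core, 6 of the cap and 1 was an interacting protein gene. Of 16 core genes 12 had a lower mean in ragweed at 24 h, with a median log2 difference of -0.23, in the alpha ring 5 of 8 and in the beta ring 7 of 8. In the cap 9 of 17 were lower, with a median of -0.17. Among the 4 activator and inhibitor genes 1 was lower, with a median of 0.07. The differences between these classes were not tested.

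Psma6, an alpha ring subunit (96952_at), had intensities of 1916 and 1704 in ragweed 24 h samples, against 2684 and 2583 in PBS 24 h samples. The groups did not overlap, and the log2 difference of -0.54 ± 0.15 had an adjusted p of 0.304 (limma, standard error). Psmb1, a beta ring subunit without a catalytic site, had 996 and 920 in ragweed 24 h samples, against 1414 and 1641 in PBS 24 h samples. Its samples did not overlap either, at -0.67 ± 0.22 and an adjusted p of 0.389 (limma). Psma7 had 1879 and 1974 in ragweed 24 h samples, against 2301 and 2763 in PBS 24 h samples, a log2 difference of -0.39 ± 0.13. Psmb3, another beta ring subunit without a catalytic site, had 3657 and 3964 in ragweed 24 h samples, against 4599 and 4427 in PBS 24 h samples, at -0.25 ± 0.09. In all 4 genes the ragweed samples lay below the PBS samples, and none was called. Psma1, also of the alpha ring, had 603 and 599 in ragweed 24 h samples, against 732 and 734 in PBS 24 h samples, at -0.29 ± 0.27. At 72 h it had 487 and 525 in ragweed samples, against 506 and 757 in PBS samples, which overlapped.

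None of the 3 constitutive catalytic subunits was called at 24 h. Psmb5, which carries the chymotrypsin-like site, had 1150 and 1335 on A in ragweed 24 h samples, against 1191 and 1512 in PBS 24 h samples. Psmb6, with the caspase-like site, had 1760 and 1416 in ragweed 24 h samples, against 1590 and 2118 in PBS 24 h samples. Psmb7, with the trypsin-like site, had 1340 and 1239 in ragweed 24 h samples, against 1636 and 1600 in PBS 24 h samples. The samples overlapped for Psmb5 and Psmb6 and did not for Psmb7, and the log2 differences were -0.12 ± 0.19, -0.22 ± 0.20 and -0.33 ± 0.16 in that order. Their inducible counterparts Psmb8, Psmb9 and Psmb10 all had higher means in ragweed, by 0.22 to 0.43 at 24 h and by 0.37 to 0.58 at 72 h (log2), and 0 of the 3 were called at either time.

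In the cap, Psmc2, an ATPase of the base, had 1060 and 1055 in ragweed 24 h samples, against 1695 and 1642 in PBS 24 h samples. The log2 difference was -0.66 ± 0.16, with an adjusted p of 0.261 (limma), and the groups did not overlap. By the probe sets that stood for them, the ATPase genes Psmc3 and Psmc6 were also lower in both ragweed 24 h samples. The log2 differences were -0.35 ± 0.24 and -0.37 ± 0.17. A second Psmc6 probe set, 163228_at on B, went the other way. It had 1087 and 1019 in ragweed 24 h samples, against 725 and 910 in PBS 24 h samples. Of the other Psmc3 probe sets, 93734_i_at was lower in both ragweed samples. The samples overlapped for 100225_f_at, 132225_at and 168979_i_at. Psmc4, measured on C, had 663 and 1181 in ragweed 24 h samples, against 482 and 565 in PBS 24 h samples, and its standard error of 0.73 was the widest of the 38 genes. Psmd1, a scaffold subunit of the base, had 2130 and 1148 in ragweed 24 h samples, against 2039 and 2620 in PBS 24 h samples, which overlapped. Psmd8, a lid subunit, had 905 and 760 in ragweed 24 h samples, against 1026 and 1351 in PBS 24 h samples, which did not.

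The ubiquitin handling subunits of the cap were mixed. Psmd4, a ubiquitin receptor, had 1628 and 1690 in ragweed 24 h samples, against 2261 and 1792 in PBS 24 h samples, at -0.28 ± 0.16. Psmd2, a scaffold subunit that also binds ubiquitin, was above the floor in the 2 ragweed 24 h samples alone, with 476 and 290, against 177 and 78.8 in PBS 24 h samples. Psmd14, the enzyme that cuts ubiquitin chains off the substrate, had 697 and 950 in ragweed 24 h samples, against 803 and 1084 in PBS 24 h samples, which overlapped. The interacting protein gene Psme3ip1 had the difference of largest size of the 38 genes at 24 h. Its intensities were 367 and 411 in ragweed 24 h samples, against 797 and 788 in PBS 24 h samples, a log2 difference of -1.03 ± 0.26 with an adjusted p of 0.271 (limma).

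**Figure D2:**
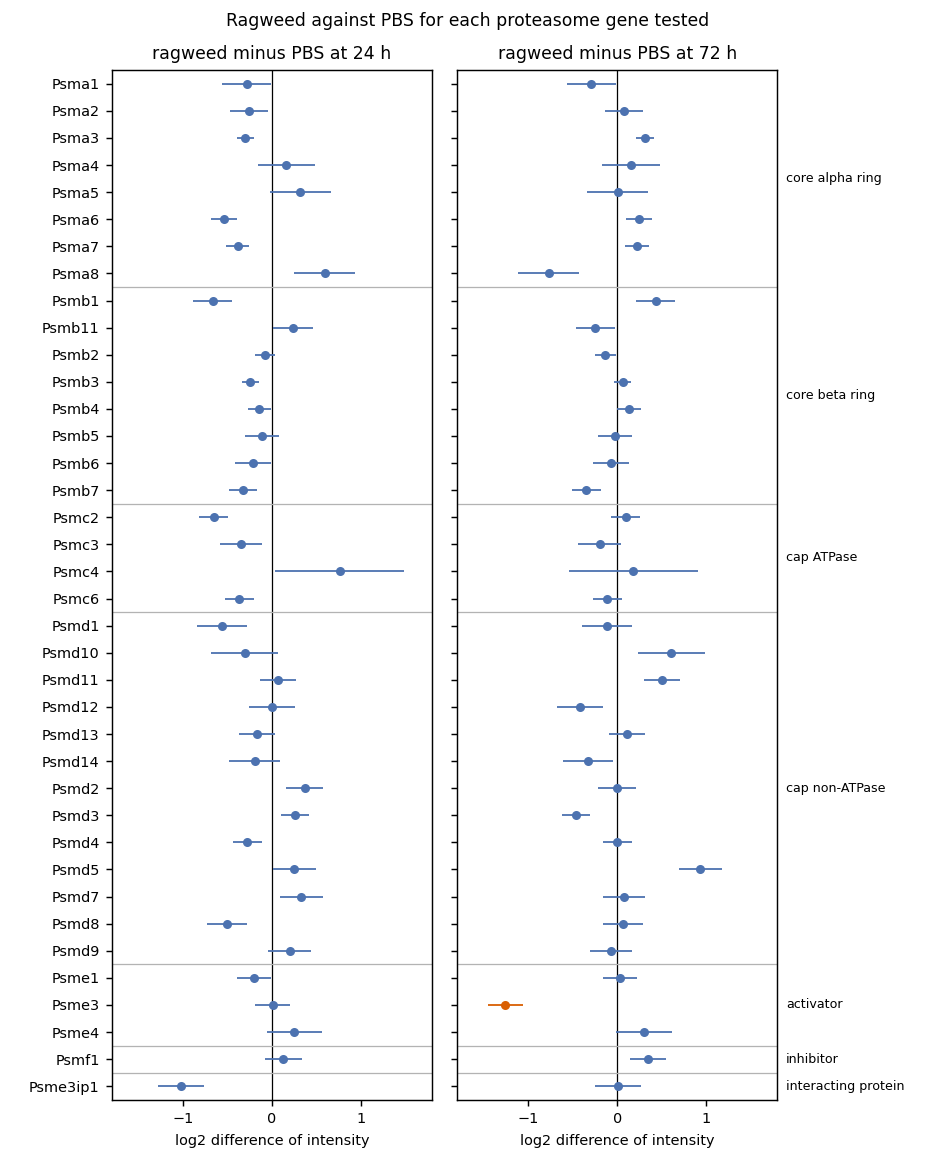
Log2 difference of ragweed minus PBS for each of the 38 tested genes at 24 h and at 72 h, with bars of 1 standard error from limma's fit. Blue points did not pass an adjusted p of 0.05 and the orange point did. Psme3 at 72 h, at -1.26, is the point that passed.

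At 72 h the activator gene Psme3 was lower in ragweed lungs, and no other proteasome gene passed the test. Psme3 encodes the nuclear activator that opens the core for proteins not marked with ubiquitin. Its probe set 93803_at on A had intensities of 435 and 430 in ragweed 72 h samples, against 1074 and 998 in PBS 72 h samples. The ragweed samples were both at less than the lower PBS sample and close to each other. The log2 difference was -1.26 ± 0.20 (adjusted p 0.0419, limma), which is 0.418 times the PBS level. This was 1 call among 55 member probe sets, where 0.527% of all probe sets were called. At 24 h the same probe set had 1182 and 1410 in ragweed samples, against 1246 and 1325 in PBS samples, which overlapped. Ragweed 72 h samples were thus also below ragweed 24 h samples, by a log2 difference of -1.58 ± 0.20 (adjusted p 0.0237, limma), 1 call among 55 where 0.305% of all probe sets were called. That call was lost with any 1 sample left out (adjusted p from 0.0622 to 0.159) and with a block on the sample code (adjusted p 0.0545). The muscle marker sums given above were also lower in ragweed than in PBS at 72 h, with Myl7 and Nppa called. The difference between the times in the ragweed effect, -1.27 ± 0.28, did not pass (adjusted p 0.373).

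The lower Psme3 level was not called on version 2 of array A. There 93803_at had 953 and 781 in ragweed 72 h samples, against 1445 and 869 in PBS 72 h samples. The samples overlapped, since the second PBS sample lay below the first ragweed sample, and the log2 difference was -0.38 ± 0.29 (adjusted p 0.688, limma). PBS 24 h samples had 1638 and 1166 on that version, above both ragweed 72 h samples, and no ragweed 24 h array of that version was among those analysed. The call on first-version A was also lost with any 1 of the 8 samples left out, where the log2 difference stayed between -1.31 and -1.21 and the adjusted p ran from 0.0943 to 0.231. Set against PBS at 24 h instead of PBS at 72 h, ragweed at 72 h was lower by -1.57 (adjusted p 0.0103).

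On first-version A the samples of Psme1 and Psme4 overlapped between ragweed and PBS at 72 h. Psme1 encodes a subunit of the interferon-inducible activator. It had 2547 and 2399 in ragweed 72 h samples, against 2370 and 2467 in PBS 72 h samples. Psme4, a nuclear activator, had 757 and 487 in ragweed 72 h samples, against 561 and 432 in PBS 72 h samples. On version 2 A Psme4 overlapped again and Psme1 did not. There Psme1 had 2665 and 2183 in ragweed 72 h samples, against 3386 and 3088 in PBS 72 h samples. Its log2 difference on version 2 was -0.42 ± 0.14 and was not called (adjusted p 0.312, limma). Psme2, the partner of Psme1, had its own probe set on first-version A alone, outside the IDs shared with version 2. There it had scaled intensities of 670 and 627 in ragweed 72 h samples, against 793 and 657 in PBS 72 h samples, which overlapped, and at 24 h it had 990 and 628 in ragweed samples, against 877 and 499.9 in PBS samples. A probe set on A annotated to both Psme2 and Psme2b had log2 differences of 0.08 ± 0.13 at 24 h and 0.14 ± 0.13 at 72 h, and the genes cannot be told apart by it. The values of the 4 Psmf1 probe sets tested, for the inhibitor of the core, did not run one way at 72 h. Of these, 3 had log2 differences of 0.35 ± 0.20 and -0.93 ± 0.37 for 2 probe sets on B and 0.83 ± 0.60 on C. For 165225_f_at on B both ragweed 72 h values, 273 and 68.7, were below the floor, against 663 and 1018 in PBS 72 h samples. None of the 4 was called.

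At 72 h the direction of the members as a whole depended on the array version. In the tables used for the tests the median log2 difference was 0.02 over the 38 genes, against 0.00 over all genes, with 22 genes higher and 15 lower in ragweed, and with version 2 A in place of first-version A it was -0.12. The core had a median of 0.03 with 9 of 16 higher, the cap 0.00 with 9 of 17 higher, and the activators and inhibitor 0.17 with 3 of 4 higher. On A, 7 of 33 member genes had both ragweed samples above both PBS samples, where 19.7% of A genes did, and 5 had both below, where 21.2% did. Of these 33 genes 13 had a lower mean in ragweed, where 51.7% of A genes did. At an unadjusted p under 0.05, 3 of the 38 genes were higher and 2 lower, where 10.6% of all genes passed in either direction.

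Psmd5, which assists the assembly of the cap base, had the highest log2 difference of the 38 genes at 72 h. It had 1503 and 1756 in ragweed 72 h samples, against 973 and 740 in PBS 72 h samples. The groups did not overlap, and the difference of 0.94 ± 0.24 had an adjusted p of 0.214 (limma). Its probe sets on B and C had differences of 0.44 ± 0.41 and 0.29 ± 0.28, with overlapping samples near the floor. On B it had 858 and 105 in ragweed 72 h samples, against 285 and 468 in PBS 72 h samples. On C it had 364 and 203 in ragweed 72 h samples, against 237 and 151 in PBS 72 h samples. For each probe set 1 ragweed sample was above the floor, with 1 PBS sample on B and 0 on C. On version 2 A the difference was 0.08 ± 0.18. Psmd10, another assembly chaperone of the base, had 1761 and 1389 in ragweed 72 h samples, against 1038 and 1009 in PBS 72 h samples, at 0.61 ± 0.37. Psmd9, the other gene of this kind, had 1176 and 883 in ragweed 72 h samples, against 1084 and 1054 in PBS 72 h samples, which overlapped.

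Lid subunits went either way at 72 h. Psmd11 had 2606 and 2898 in ragweed 72 h samples, against 1530 and 2458 in PBS 72 h samples, at 0.50 ± 0.20. Psmd3 had 1713 and 1379 in ragweed 72 h samples, against 1948 and 2305 in PBS 72 h samples, at -0.46 ± 0.16. Neither gene's groups overlapped and neither was called. Of the core genes, Psmb1 had 1531 and 1701 in ragweed 72 h samples, against 975 and 1464 in PBS 72 h samples, so that its ragweed samples lay above PBS at 72 h and below PBS at 24 h. The difference between the times was 1.11 ± 0.31, with an adjusted p of 0.496 (limma). Psma3 ran likewise on first-version A, at -0.30 ± 0.10 at 24 h and 0.31 ± 0.10 at 72 h. The higher values at 72 h were not seen again on version 2 A. There the 72 h differences were -0.11 ± 0.12 for Psmb1, -0.29 ± 0.15 for Psma3 and -0.10 ± 0.21 for Psmd11. Psmd3 kept its direction on version 2 A, at -0.14 ± 0.15. Of the 55 member probe sets, 0 were called for the difference between the times, where 0.0356% of all probe sets were called, and 10 of the 38 genes had an unadjusted p under 0.05, where 7.87% of all genes did. For the mean of both times 0 were called as well, where 0.65% of all probe sets were called. There 5 of the 38 genes had an unadjusted p under 0.05, where 11.9% of all genes did (limma). On A alone 1 of 33 member genes was higher and 4 were lower at that p. Among all 5463 A genes 380 were higher and 449 lower.

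Probe sets of 1 gene did not always run together. Psma3 had 3 probe sets tested, and 166835_at on C had 237 and 425 in ragweed 24 h samples, against 1134 and 1727 in PBS 24 h samples. That was a log2 difference of -2.12 ± 0.59 (adjusted p 0.304, limma), where 92544_f_at had -0.30 ± 0.10 and 135435_at had 0.01 ± 0.32. At 72 h 166835_at was below the floor in both ragweed samples, at 208 and 133, against 877 and 471 in PBS samples, while 92544_f_at was higher in ragweed. Psmc3 had 5 probe sets tested, with log2 differences at 72 h from -1.32 to -0.19, and 0 called. On the other array versions 2 of them were higher in ragweed at 72 h. On first-version C 132225_at had 1.11 ± 0.67, and on version 2 A 100225_f_at had 0.56 ± 0.21. Still lower on version 2 A were 93734_i_at, at -0.25 ± 0.20, and 93735_f_at, at -0.07 ± 0.15. None of these was called.

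The tissue-restricted forms of the core were dim. Psma8, the alpha subunit known from germ cells, had 291 and 468 in ragweed 24 h samples, against 138 and 192 in PBS 24 h samples, where both PBS values were below the floor. At 72 h it had 121 and 284 in ragweed samples, against 496 and 409 in PBS samples. Psmb11, the beta subunit known from cortical epithelium of the thymus, was above the floor in 1 ragweed 24 h sample and 1 PBS 72 h sample. Psmd12, a lid subunit, was above the floor in 1 ragweed 72 h sample and 1 PBS 72 h sample on first-version A. On version 2 A the same probe set was above that table's floor of 238 in all 6 samples. There it had 332 and 564 in ragweed 72 h samples, against 773 and 727 in PBS 72 h samples. The groups did not overlap, and the log2 difference of -0.79 ± 0.29 was not called (adjusted p 0.371, limma).

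**Figure D3:**
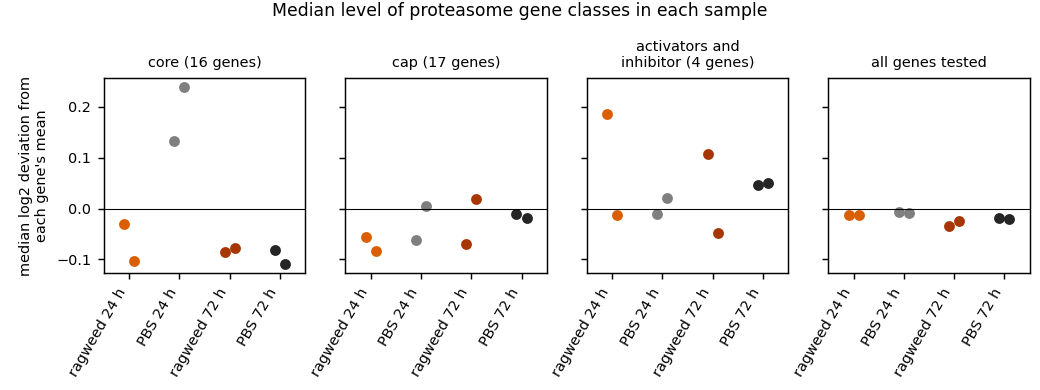
Median over genes of the log2 deviation from each gene's own mean, for each sample (1 point each), in the core, the cap, the activators with the inhibitor, and all 12840 genes tested. The core medians of the PBS 24 h samples, 0.13 and 0.24, lie above those of the other 6 samples, which run from -0.11 to -0.03.

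In the core, as measured in these tables, the PBS 24 h samples stood above the other 6 samples. The median deviation of the 16 core genes from their own means was -0.03 and -0.10 in ragweed 24 h samples, against 0.13 and 0.24 in PBS 24 h samples. It was -0.09 and -0.08 in ragweed 72 h samples, against -0.08 and -0.11 in PBS 72 h samples. In each PBS 24 h sample 12 of 16 core genes were above their mean, and in each of the other 6 samples between 5 and 7 were. The medians of the cap ran from -0.08 to 0.02 over the 8 samples. The PBS 24 h samples also stood apart in lung markers. Scgb1a1, a product of club cells, had 30248 and 31948 there, against 70505 to 79329 in the other 6 samples. Sftpc, a product of alveolar type II cells, had its highest value, 70505, in both PBS 24 h samples. After the quantile step such a value stands for a rank, and Scgb1a1 had the same 70505 in both ragweed 72 h samples. The part of these cells in the core values was not tested. Set against PBS at 72 h, the ragweed 24 h samples had a median of 0.02 over the core and 0.00 over all 38 genes. The 2 comparisons share the ragweed samples.

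Between the PBS groups themselves, most core genes had lower means at the later time. Between PBS at 72 h and PBS at 24 h, 13 of 16 core genes had a lower mean at 72 h, with a median log2 difference of -0.26, and 9 of 17 cap genes did, with a median of -0.13. On A, 24 of 33 member genes were lower in PBS at 72 h, where 50% of A genes were, and 13 had both 72 h samples below both 24 h samples, where 19.3% of A genes did. At an unadjusted p under 0.05, 1 of the 38 genes was higher and 5 were lower, where 9.54% of all genes passed. No gene was called through the probe set that stood for it, and the lowest adjusted p of these was 0.293 (limma), for Psma3. Psma6 had 1942 and 1634 in PBS 72 h samples, against 2684 and 2583 in PBS 24 h samples, at -0.56 ± 0.15. Psmb4, a beta ring subunit without a catalytic site, had 3530 and 3760 in PBS 72 h samples, against 5119 and 4330 in PBS 24 h samples, at -0.37 ± 0.13. The muscle marker sums were higher in PBS at 72 h than in PBS at 24 h. These groups share the PBS 24 h samples with the comparison of ragweed at 24 h. Between ragweed at 72 h and ragweed at 24 h, 10 of 16 core genes were lower at 72 h and 13 of 17 cap genes were higher, with medians of -0.07 and 0.12. There 5 of the 38 genes were higher and 2 lower at an unadjusted p under 0.05, where 10.7% of all genes passed.

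The single call between the PBS groups was a probe set of Psmb5. On version 2 B, 109821_f_at had 3663 and 3611 in PBS 72 h samples, against 8385 and 7346 in PBS 24 h samples. The log2 difference was -1.11 ± 0.19 (adjusted p 0.0374, limma), 1 call in 55 where 0.281% of all probe sets were called. The ragweed samples were ordered alike, with 3690 and 3970 at 72 h, against 8339 and 6482 at 24 h, a difference of -0.94 ± 0.19 that was not called (adjusted p 0.0812). Ragweed and PBS overlapped at 24 h and differed by 0.07 ± 0.19 at 72 h. The call was lost with any 1 sample left out (adjusted p from 0.0715 to 0.269). The suffix _f_at marks a probe set whose probes can match several similar sequences. On first-version B the same probe set had 4508 and 3544 in PBS 72 h samples, against 6079 and 5688 in PBS 24 h samples, at -0.56 ± 0.15 (adjusted p 0.253). There the ragweed samples had 5278 and 5446 at 72 h, against 4940 and 4902 at 24 h, the opposite order to version 2. The Psmb5 probe set on A, 101558_s_at, had -0.29 ± 0.19 between the PBS groups. The ratio of the 3′ to the 5′ actin control on version 2 B was 0.919 and 0.813 in PBS 72 h samples, against 0.708 and 0.465 in PBS 24 h samples. The ratio for the Gapdh control ran the other way, at 1.02 and 0.981 in PBS 72 h samples, against 1.19 and 1.14 in PBS 24 h samples. The part of RNA quality in the Psmb5 result was not tested.

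**Figure D4:**
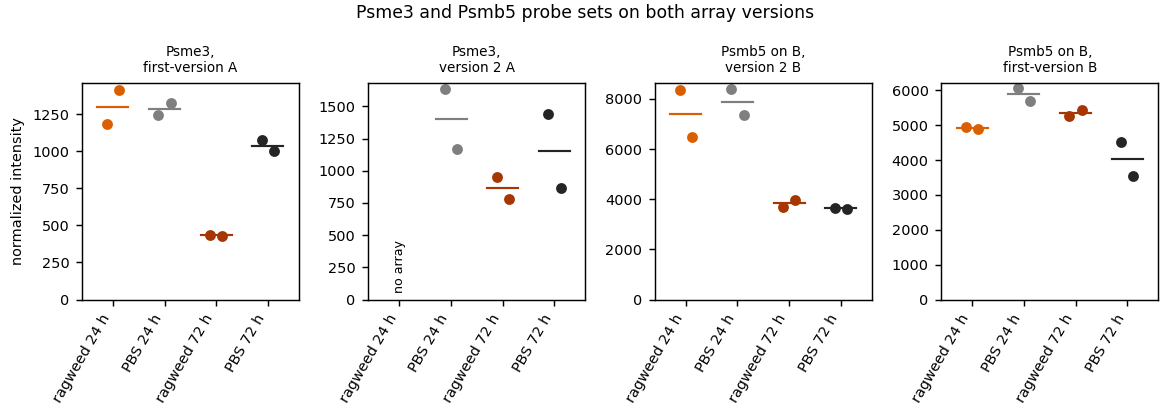
Normalized intensity of Psme3 (93803_at) on both versions of array A and of Psmb5 (109821_f_at) on both versions of array B, 1 point per sample with the group mean as a line. First-version values were quantile normalized, and version 2 values were scaled alone. Psme3 is low in both ragweed 72 h samples on first-version A and overlaps with PBS 72 h on version 2. Psmb5 is low in all 4 samples of 72 h on version 2 B, and in the PBS 72 h samples alone on first-version B.

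The start sites of the genes that carried these results are shown by the 150 bases before them, from RefSeq on GRCm38.p6, read in the direction of the gene. A promoter window of 250 bases before to 50 after the start was given for 36 of the 43 genes and for 27025 genes in all. Capitals mark CCAAT, or ATTGG where it lies on the opposite strand, in Psme3, Psma3 and Psmb3, and TGACNNNGC, the core of the antioxidant response element, in Psmb5 and Psmb6. Psme3 and Psmb5 carried the calls, Psmb6 is a second catalytic subunit with the TGACNNNGC motif, and Psma3 and Psmb3 were core genes with lower ragweed values at 24 h. The windows lie at chr11:101316063-101316212 on the plus strand for Psme3, at chr14:54617996-54618145 on the minus strand for Psmb5, at chr11:70525207-70525356 on the plus strand for Psmb6, at chr12:70974473-70974622 on the plus strand for Psma3 and at chr11:97703284-97703433 on the plus strand for Psmb3.
Psme3: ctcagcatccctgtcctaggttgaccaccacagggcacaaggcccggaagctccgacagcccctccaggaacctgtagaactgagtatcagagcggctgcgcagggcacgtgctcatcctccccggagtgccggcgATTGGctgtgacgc
Psmb5: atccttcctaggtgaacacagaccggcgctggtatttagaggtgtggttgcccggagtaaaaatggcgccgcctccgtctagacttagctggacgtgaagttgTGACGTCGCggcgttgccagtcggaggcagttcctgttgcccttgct
Psmb6: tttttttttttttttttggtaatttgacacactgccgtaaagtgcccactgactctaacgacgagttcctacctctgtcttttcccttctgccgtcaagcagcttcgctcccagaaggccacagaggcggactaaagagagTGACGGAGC
Psma3: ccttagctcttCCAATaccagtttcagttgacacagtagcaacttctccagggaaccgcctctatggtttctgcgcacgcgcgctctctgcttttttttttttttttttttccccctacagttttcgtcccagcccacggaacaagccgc
Psmb3: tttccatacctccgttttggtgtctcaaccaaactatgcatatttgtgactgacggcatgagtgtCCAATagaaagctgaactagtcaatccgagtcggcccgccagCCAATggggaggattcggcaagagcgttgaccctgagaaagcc

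Both motifs were found in the windows of proteasome genes at shares near those of all genes. TGACNNNGC was present on either strand in 6 of 36 genes (16.7%), namely Psmb5, Psmb6, Psmc6, Psmd9, Psmd12 and Psme4, and in 14% of all genes. In Psmb5 it lay from -47 to -39 of the start and in Psmb6 from -9 to -1. CCAAT was present on either strand in 15 of 36 genes (41.7%), and in 41.1% of all genes. By class, it was in 7 of 12 core genes (58.3%), in 5 of 17 cap genes (29.4%) and in 1 of 5 activator and inhibitor genes. That 1 was Psme3, where it lay from -14 to -10. The interacting protein genes Psmc3ip and Psme3ip1 also had it. No printed motif overlapped another. A match is a stretch of letters and not a binding site.

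Version 2 of array A gave a second measurement of 32 of the genes in 3 groups, without ragweed at 24 h. There 27 of 32 proteasome genes were lower in PBS at 72 h than in PBS at 24 h, with a median of -0.29, and on first-version A 24 of the same 32 were, with a median of -0.19. Of all genes measured on both versions 48.1% were lower on version 2, and 20 of the 32 members had both 72 h samples below both 24 h samples, where 22.3% of genes did. Both classes were mostly lower there: 13 of 14 core genes, with a median of -0.29 and 10 without overlap, and 11 of 14 cap genes, with a median of -0.22 and 8 without overlap. On first-version A the same counts lower were 13 of 14 and 8 of 14. Psmb4 had -0.53 ± 0.11, Psmb5 -0.54 ± 0.11 and Psmb3 -0.45 ± 0.11, and none was called (0 of 32, where 0.496% of these genes were called). Psmd13, a lid subunit, went the other way, at 0.73 ± 0.18 on version 2 and -0.18 ± 0.20 on the first version.

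At 72 h more members were lower in ragweed on version 2 than on the first version. On version 2, 25 of 32 genes were lower in ragweed than in PBS, with a median of -0.10, where 54.1% of all genes were lower, and 11 had both ragweed samples below both PBS samples, where 27% of genes did. The lower ones were 12 of 14 core genes, 10 of 14 cap genes and all 3 activators measured. On first-version A 13 of the same 32 were lower, with a median of 0.02. Psma3 was at -0.29 ± 0.15 on version 2, against 0.31 ± 0.10 on the first version, and Psmb3 at -0.38 ± 0.11, against 0.06 ± 0.09. None of the 32 was called on version 2, where 0.854% of genes were. The actin control, a measure of RNA quality, differed between these groups on version 2. The ratio of the 3′ to the 5′ actin control was 0.801 and 0.578 in ragweed 72 h samples, against 0.189 and 0.198 in PBS 72 h samples, and 0.535 and 0.437 in PBS 24 h samples. The same ratio for the Gapdh control was 0.869 and 0.851 in ragweed 72 h samples, against 0.824 and 0.751 in PBS 72 h samples. For Gapdh it was 0.988 and 0.857 in PBS 24 h samples. On first-version A the actin ratio ran from 0.798 to 0.968 over the 8 samples. The part of RNA quality in the difference between the versions was not tested.

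**Figure D5:**
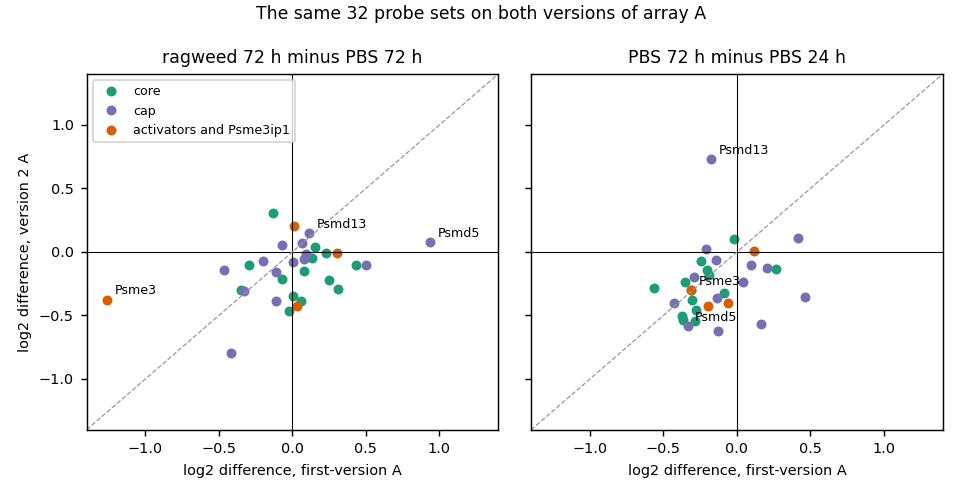
Log2 differences of the same 32 probe sets on first-version A (horizontal) and version 2 A (vertical), for ragweed minus PBS at 72 h (left) and PBS at 72 h minus PBS at 24 h (right), with the dashed line at equality. On the left 25 points lie below 0 on version 2 and 13 on the first version, with Psme3 at -1.26 and -0.38. On the right 27 lie below 0 on version 2 and 24 on the first version.

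Genes outside the tested set could be followed on version 2 A. Psmd6, a lid subunit, had 1751 and 1618 in ragweed 72 h samples, against 2116 and 2182 in PBS 72 h samples, and the groups did not overlap (log2 difference -0.35 ± 0.12, adjusted p 0.323, limma). The ATPase genes Psmc1 and Psmc5 had differences of -0.17 ± 0.20 and -0.14 ± 0.16. A second Psmb5 probe set, 160559_at, had 1282 and 1513 in ragweed 72 h samples, against 692 and 1121 in PBS 72 h samples, at 0.66 ± 0.26, while 101558_s_at had -0.47 ± 0.11 in the same comparison. Neither was called.

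Other genes of the pathway were followed by a list of 25 symbols: assembly chaperones, cap-associated proteins, regulators of proteasome genes, ubiquitin genes, shuttle and unfolding factors, and the first enzyme of ubiquitination. Of these 15 were tested and 0 were called in any of the 6 comparisons. At 24 h 5 had higher and 10 had lower means in ragweed, with a median log2 difference of -0.10, and at 72 h 5 were higher and 9 lower, with a median of -0.06. Nfe2l1, the transcription factor that raises proteasome genes when the proteasome is inhibited, had 407 and 757 in ragweed 72 h samples, against 775 and 1281 in PBS 72 h samples (-0.84 ± 0.36, adjusted p 0.51, limma). Psmg1, an assembly chaperone of the core, had 731 and 637 in ragweed 24 h samples, against 391 and 447 in PBS 24 h samples (0.71 ± 0.34, adjusted p 0.628, limma). In both genes the groups did not overlap, and neither was called.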

How the data were processed

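The deposited values are linear intensity, 1 per probe set and array, as made by the authors. The software and upstream steps are not given in the sources used here. As deposited, arrays of version 2 and the ragweed arrays of the first version shared a 2% trimmed mean near 800, while PBS arrays of the first version lay between 80.6 and 376.5. An uncoded ragweed 24 h array equalled the 1a array divided by 2.63 and was counted with it, which left 46 distinct arrays of 47. First-version A, over the IDs shared with version 2, was scaled to 800 and quantile normalized. Version 2 A, B and C kept their scale without a quantile step, apart from the alternative for B and C. First-version B and C, given for comparison, were treated like first-version A. Values compared between versions thus differ in the quantile step. Control probe sets were left out.

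Log2 intensities were fitted in limma 3.58.1 (R 4.3.3) with 1 mean per group, 4 residual degrees of freedom and a mean-variance trend, tested on simulated data. Symbols came from the platform annotation, updated by gene ID. Genes named with values were those called, the catalytic subunits, activators, inhibitor, ubiquitin-handling and chaperone subunits, and the 3 of largest difference in each role and each ragweed comparison; others are named as values from outside this rule, chosen after their values were seen. Members and lists were chosen with earlier results of these data known. Alternatives covered the block on sample code, samples left out, normalization, array version, floor, filter, adjustment, trend and the PBS samples compared with.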

Additional observations from a re-analysis of the deposited data

How the results depend on the processing

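The absence of calls at 24 h, for the mean and for the difference between the times held under every alternative that gave a value. At 72 h the count of 1 became 0 with the replicate block, 0 with version 2 A, 0 with any sample left out, and 2 against PBS at 24 h, where the Psmb5 probe set 109821_f_at was called at -1.04 (adjusted p 0.0266), against 0.07 in the comparison within 72 h. Between the PBS groups the count of 1 became 0 under the replicate block, any sample left out, quantile normalization of B and C, first-version B and C, version 2 A, the lower floor, no filter, adjustment within tables and no trend; it remained at 1 without the quantile step on A. Between the ragweed groups the count of 1 became 0 with the replicate block and with any sample left out. The block pairs samples by code alone: deviations of same-coded samples correlated from -0.08 to 0.04, so the code is no evidence of pairing. Medians moved by more than the 0.036 between replicates in these cases. At 24 h the median of -0.18 became -0.14 with the lower floor, -0.13 with no filter, -0.12 over all probe sets, -0.0042 against PBS at 72 h and -0.10 against both PBS groups, and ran from -0.20 to -0.11 with samples left out. At 72 h it became -0.12 on version 2 A, -0.12 against PBS at 24 h and -0.051 against both. For the difference between the times, 0.19 became 0.15 with quantile normalization of B and C, 0.15 with the lower floor and 0.12 with no filter, and ran from 0.11 to 0.26 with samples left out. Between the PBS groups -0.16 became -0.19 with first-version B and C and -0.24 with version 2 A, and ran from -0.18 to -0.11 with samples left out. Between the ragweed groups 0.08 became 0.020 over all probe sets. The causes were not tested. With a sample left out, the lone sample of its group is assumed to vary like the other groups. Of 177 pairs of a named probe set and a comparison that were not called, 73 changed sign under at least 1 alternative, the 8 fits with a sample left out included. Version 2 A gave no value for comparisons with ragweed at 24 h.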
